A study of Mus musculus with 12 samples.

Results

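Cultures of monocytes from the bone marrow of C57BL/6 mice (BMDMs), all grown in RANKL at 100 ng/ml and M-CSF at 50 ng/ml, were compared between treatment with dexamethasone plus iBRD9 (DEX + iBRD9) and treatment with dBRD9. Each group held 3 libraries, so 6 of the 12 RNA-seq libraries used here were compared, and the comparison covered the 11670 genes that passed a filter on low counts of 21899 in the table. The other 6 libraries were 3 of BMDMs with the cytokines alone (MR) and 3 treated with JQ1, an inhibitor of BET bromodomain proteins. They entered the same fit, and MR levels are given beside the results where they help to read a difference. The labels do not give the doses, the duration, the sex of the mice, or whether the replicates were separate cultures, so p-values measure only the spread between these libraries. The study's text describes low doses for the combined treatment, and the doses of the 2 groups were not matched.

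BRD9 is a bromodomain protein and a subunit of the non-canonical BAF complex, which moves nucleosomes and so opens or closes DNA to transcription. iBRD9 occupies its bromodomain, the pocket that reads acetylated lysine, and leaves the protein in place, whereas dBRD9 is a PROTAC, a bifunctional molecule that brings BRD9 to an E3 ubiquitin ligase and has the whole protein degraded. Dexamethasone is a synthetic glucocorticoid that binds the glucocorticoid receptor, a transcription factor that induces genes such as Tsc22d3 and Fkbp5 and represses many inflammatory genes. M-CSF keeps macrophage precursors alive and RANKL drives them to fuse into osteoclasts, the cells that resorb bone, and interferon-beta made by the same cells restrains that process. The comparison therefore sets 2 ways of disabling BRD9 against each other, with a glucocorticoid added on 1 side. No group among the 12 libraries used here received DEX or iBRD9 alone, so their shares in any difference cannot be told apart.

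The 6 libraries held 16156043 to 17153620 counts each and detected 13326 to 13712 genes. The cells expressed Csf1r, the M-CSF receptor, which lay between 1389 and 1518 CPM (counts relative to the TMM-scaled library size) in the 6 libraries. Brd9 itself was read at 43.2, 43.1 and 43.6 CPM with DEX + iBRD9 and at 46.1, 45.6 and 43.6 CPM with dBRD9. The log2 difference was −0.06 with a 95% confidence interval of −0.22 to 0.10 (adjusted p = 0.75, edgeR quasi-likelihood test). iBRD9 and dBRD9 are aimed at the protein, so this level does not check the labels. In the 9 libraries without JQ1, the first principal component (30.4% of the variance) placed the DEX + iBRD9 libraries at −16.2 to −12.2 and the dBRD9 libraries at 13.5 to 22.4. MR libraries 1 and 2 lay at −14.3 and −10.9 with the former, and MR library 3 at 15.7 with the latter. The same division of the MR group appeared in the liver transcripts described next, and it coincides fully with the 2 groups compared.

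Transcripts of liver cells were present in the dBRD9 libraries and missing from the DEX + iBRD9 libraries. Alb, which encodes serum albumin, had 1, 0 and 1 counts with DEX + iBRD9 and 758, 738 and 866 counts with dBRD9. The counts were 0, 2 and 801 in MR libraries 1 to 3 and 1031, 744 and 816 in JQ1 libraries 1 to 3. The ratio of dBRD9 to DEX + iBRD9 was 1165, with an exact 95% interval of 322 to 9624 that covers counting error only. Apoa1, the main protein of HDL, had 0 counts in each of the 3 DEX + iBRD9 libraries and 145, 138 and 165 with dBRD9, at least 147-fold higher with dBRD9 against a floor of 3 counts over the group. Acta1, the actin of skeletal muscle, had 0 counts against 46, 56 and 79 (at least 59.5-fold higher). Apoa1 and Acta1 also had 0 counts in MR libraries 1 and 2 and 140 and 55 counts in MR library 3. In JQ1 libraries 1 to 3 Apoa1 had 173, 143 and 128 counts and Acta1 had 83, 45 and 79.

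Of the 48 hepatocyte markers in the table, 26 had 0 counts in all 3 DEX + iBRD9 libraries and at least 1 count in every dBRD9 library, and none had the opposite pattern. A further 11 were counted in all 6 libraries. One of these was Trf, transferrin, which macrophages also express, with 842, 698 and 843 counts against 1031, 1169 and 1145. Without Trf the list summed to 1769 to 1920 counts with DEX + iBRD9 and to 3851 to 4264 with dBRD9. Nearly all of the former were counts of Ass1, also counted in all 6 libraries. Ass1 had 1787, 1691 and 1735 counts with DEX + iBRD9 and 2042, 1987 and 2102 with dBRD9. Of the 28 skeletal muscle markers 5 had the same pattern, and no marker of the other lists, from neutrophils to kidney, had 0 counts with DEX + iBRD9 and 30 or more with dBRD9. The presence of liver transcripts in only 1 of the 2 groups compared was known when the comparison was chosen, so these values are given with no test. In bulk RNA, fewer cells of a type and less RNA per cell cannot be told apart, and where these transcripts came from was not tested.

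**Figure D1:**
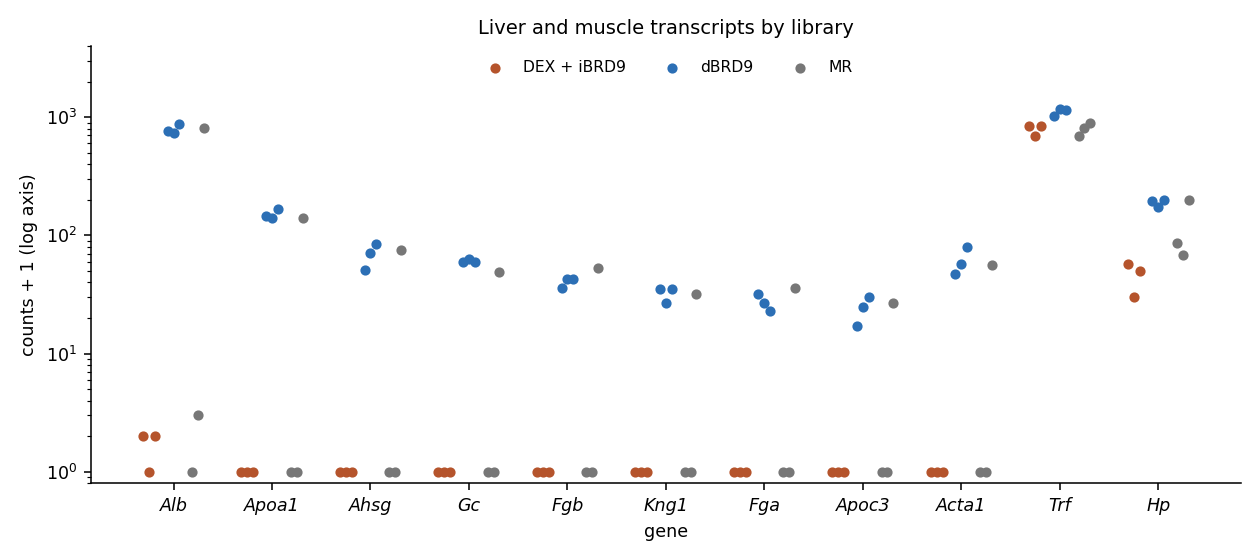
Counts plus 1 on a log axis of 9 liver and muscle transcripts (Alb to Acta1) and of Trf and Hp, with 1 point per library for DEX + iBRD9, dBRD9 and MR. For Apoa1 the DEX + iBRD9 points sit at 0 counts and the dBRD9 points at 138 to 165 counts, and only 1 of the 3 MR points is beside the latter.

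Across the expressed genes the groups differed by small amounts. The edgeR quasi-likelihood test called 74 genes higher and 201 genes lower with DEX + iBRD9 at an adjusted p under 0.05, which is 0.634% and 1.72% of the 11670 tested. The median log2 change of the called genes was 0.29 for those higher and −0.36 for those lower, and that of all tested genes was −0.0012. Only 1 gene was called higher by 2-fold or more, the histone gene H3c4. It lay under 1 CPM in the 6 libraries, passed the filter through the JQ1 libraries (6.94, 5.003 and 6.70 CPM), was left out of the fit of the 6 libraries by the filter on low counts, and lost its call without each of the 6 libraries in turn. By that much 21 were called lower, of which 11 were hepatocyte markers, whose pattern was known when the comparison was chosen, so that this count is a description. The 3 values of one group lay wholly above those of the other for 1460 genes (12.5%) in the direction of DEX + iBRD9 and for 1551 genes (13.3%) in the direction of dBRD9. A fit of the 6 libraries alone, without the MR and JQ1 groups, called 336 genes higher (2.95% of 11379) and 513 lower (4.51%), among them 72 of the 74 and 193 of the 201.

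The counts of calls depended on single libraries. Without DEX + iBRD9 library 2 there were 2 genes called higher and 6 called lower. The counts were 8 and 24 without DEX + iBRD9 library 3, 6 and 33 without dBRD9 library 1, and 14 and 49 without dBRD9 library 3. A total of 8 genes kept their call without each library in turn, and those reported here are described below. When the division by albumin (at least 100 counts) was added to the fit as a term, 0 genes were called. Of the 11670 tested genes 570 had an unadjusted p under 0.05, against 2022 in the main fit. The albumin term is estimated only from MR library 3 against MR libraries 1 and 2, because every other group lies wholly on one side. The low number of calls under it therefore does not show that the groups were equal. No other tool was run with this term. The median standard error grew 1.86-fold, since each of the 2 groups lies wholly on one side of that division. The sign was kept under this term by 74 of the 74 genes called higher and by 194 of the 201 called lower. The latter include hepatocyte markers with no usable estimate under it, such as Fgg at −0.094 ± 153.

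The direction of change followed the length of the transcript. The shortest 20% of genes (243 to 2561 bases) had a median log2 change of −0.12 and the longest 20% (7667 bases and more) one of 0.083. The shortest bin held 113 of the 201 genes called lower and 3 of the 74 called higher, and the longest bin held 5 and 31. Genes called lower had a median length of 2140 bases and genes called higher one of 6638 bases, against 4522 bases for all tested genes. Across genes, which are not independent replicates, Spearman's rho between length and log2 change was 0.377.

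The gradient set the dBRD9 libraries apart from those of DEX + iBRD9 and MR. The median of the shortest bin minus that of the longest, as log2 CPM relative to each gene's mean, was −0.064 to −0.091 in the 3 DEX + iBRD9 libraries and 0.081 to 0.172 in the 3 dBRD9 libraries, with no overlap. The MR libraries lay between −0.096 and −0.026, on the side of DEX + iBRD9, and MR library 3 did not differ from the other MR libraries as it did in albumin. With a per-library offset for transcript length, 104 genes (0.891%) were called higher and 126 (1.08%) lower, including 46 of the 74 and 102 of the 201. Results below are therefore given with the value under this offset where it changes the call of a gene described or the number of calls in a list. Genes called under an alternative alone were named after their values were seen. Whether the gradient arose in the cells or in the preparation of the RNA was not tested.

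**Figure D2:**
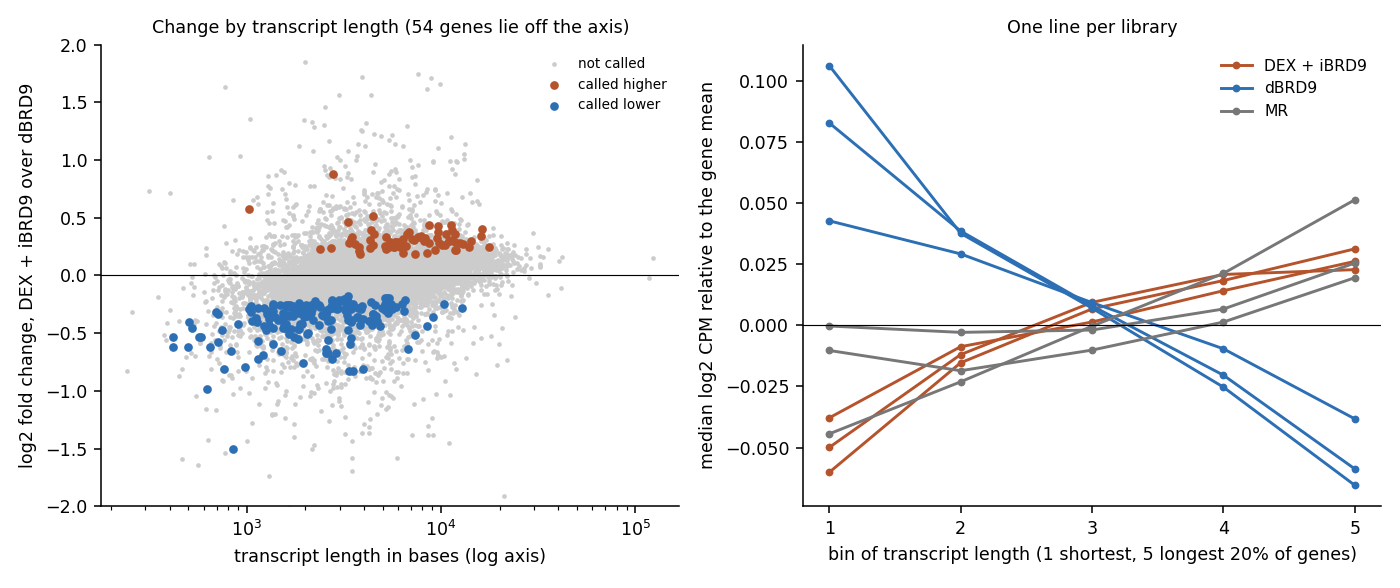
Left, the log2 fold change of every tested gene against its transcript length in bases on a log axis, with called genes in colour; 54 genes beyond ±2 are not shown. Right, the median log2 CPM relative to the gene mean in 5 bins of transcript length, 1 line per library. The dBRD9 lines fall from the shortest to the longest bin and those of DEX + iBRD9 rise.

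The 8 genes that kept their call without any 1 library were 2 higher and 6 lower with DEX + iBRD9. Hgsnat, a lysosomal membrane enzyme needed to break down heparan sulfate, had the smallest adjusted p of them. It was read at 231, 229 and 227 CPM with DEX + iBRD9 and at 169, 162 and 166 CPM with dBRD9, so the groups were well separated. The log2 change was 0.47 ± 0.05 (SE, adjusted p = 1.78e-05), a 1.38-fold higher level, and the MR level was 163 ± 3.02 CPM (SD, n = 3), close to that of dBRD9. Resf1, which is known in mouse embryonic stem cells for silencing retroelements, was read at 171, 189 and 180 CPM against 117, 144 and 139 (log2 change 0.43 ± 0.07, adjusted p = 0.00154).

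Bex3, a small X-linked signalling adaptor, fell most of the 6. It was read at 18.3, 18.8 and 18.2 CPM with DEX + iBRD9 and 35.1, 28.6 and 32.3 CPM with dBRD9, 0.577 of the dBRD9 level (log2 change −0.79 ± 0.10, adjusted p = 0.000132). MR lay between them at 25.1 ± 0.754 CPM. Cd5l, a protein secreted by tissue macrophages, was read at 109, 108 and 106 CPM against 168, 135 and 158 (log2 change −0.51 ± 0.07, adjusted p = 0.000257). The MR level of Cd5l, 161 ± 9.35 CPM, was like that of dBRD9. Rplp2, an acidic protein of the ribosomal stalk, was read at 131, 122 and 114 CPM against 182, 169 and 167 (log2 change −0.50 ± 0.07, adjusted p = 0.000866).

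Npy and Mif also kept their calls, and were named after their values were seen. Npy, neuropeptide Y, was read at 68.5, 65.7 and 60.0 CPM against 101, 87.1 and 92.6 (log2 change −0.53 ± 0.08, adjusted p = 0.00121). Mif, a macrophage cytokine with tautomerase activity, was read at 108, 98.1 and 96.4 CPM against 154, 125 and 140 (log2 change −0.47 ± 0.07, adjusted p = 0.000933). The transcripts of Npy and Mif are short, and with the length offset their calls were lost (adjusted p = 0.175 and 0.162), whereas those of Hgsnat, Resf1, Bex3, Cd5l and Rplp2 were kept.

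**Figure D3:**
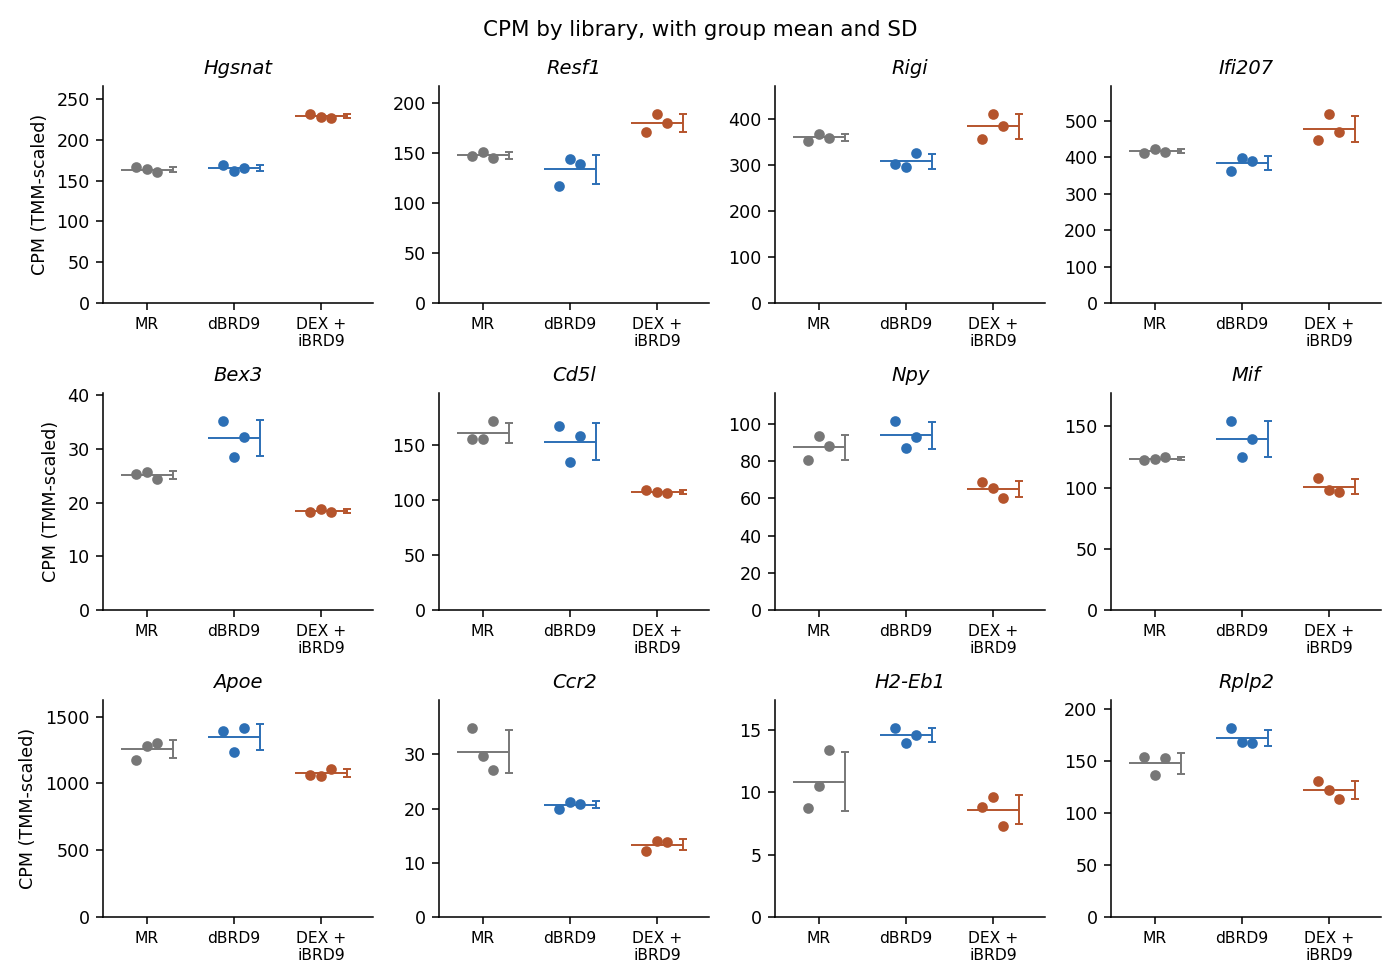
CPM (TMM-scaled) of 12 genes, 1 point per library, with the group mean as a line and the SD as a bar, for MR, dBRD9 and DEX + iBRD9. Hgsnat is higher with DEX + iBRD9 (227 to 231 CPM) than in the other libraries shown, and Ccr2 has its highest level in MR and its lowest with DEX + iBRD9.

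Among genes with a mean of 5 CPM or more whose libraries did not overlap, the changes were modest. On the higher side, Plp2rt led at 29.2, 38.2 and 35 CPM against 19, 24.5 and 25 (log2 change 0.58 ± 0.12, adjusted p = 0.00779). Il15ra, a receptor chain that presents interleukin 15, was read at 19.1, 19.6 and 17.7 CPM against 14.3, 11.8 and 13.4 (log2 change 0.51 ± 0.13, adjusted p = 0.0356), and MR at 18.5 ± 2.87 CPM was like DEX + iBRD9. Dmpk, a kinase known from myotonic dystrophy, was read at 59.5, 57.2 and 53.3 CPM against 40.3, 45.5 and 43.7 (log2 change 0.39 ± 0.08, adjusted p = 0.0108), with the lowest level in MR, 34.7 ± 4.28 CPM. The rest were Tut4, a terminal uridylyltransferase, Msh3, a mismatch repair protein, Cep295, a centriole protein, Sorl1, a sorting receptor, Zfp518a, Pag1, an adaptor that recruits Csk, and Ifi203, with log2 changes of 0.36 to 0.44. With the length offset Msh3, Cep295, Sorl1 and Zfp518a were no longer called (adjusted p = 0.056 to 0.099). Tut4, Msh3 and Cep295 overlap another gene on the opposite strand, and whether the counting used strand is not given in the sources used here. Of the 74 genes called higher 14 overlapped another measured gene on either strand, and of the 201 called lower 57 did. Not every such overlap is named below.

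On the lower side, Polr2k, a small subunit shared by the nuclear RNA polymerases, was read at 3.62, 2.80 and 3.86 CPM with DEX + iBRD9 against 8.64, 5.28 and 6.46 with dBRD9 (log2 change −0.98 ± 0.25, adjusted p = 0.03). Serpinb9b, an intracellular protease inhibitor, was read at 5.15, 6.74 and 5.99 CPM against 11.8, 8.57 and 11.4 (log2 change −0.83 ± 0.17, adjusted p = 0.0102). Atg9b, a membrane protein of autophagy, was read at 5.88, 4.77 and 5.81 CPM against 10.5, 7.72 and 10.7 (log2 change −0.81 ± 0.18, adjusted p = 0.0153). Ly6a, the surface antigen Sca-1, was read at 20.9, 23.6 and 21.6 CPM against 43.8, 26.2 and 36.5 (log2 change −0.69 ± 0.15, adjusted p = 0.0184), and the dBRD9 libraries spread widely. Ift27, a small GTPase of cilia, and Rpa3, a subunit of the single-strand DNA binding complex, had log2 changes of −0.67 and −0.72. Polr2k, Ly6a and Rpa3 lost their calls with the length offset (adjusted p = 0.14, 0.062 and 0.13), and Serpinb9b, Atg9b and Ift27 kept them.

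Hardly any glucocorticoid receptor target passed the test between the group that received dexamethasone and the one that did not. Of 39 tested targets 0 were called higher and 2 lower (Lcn2 and Stab1) by edgeR, beside 0.634% and 1.72% of all genes, and the median log2 change was −0.022. The length offset added 1 called higher, Nfkbia, and the fit of the 6 libraries 2 called lower, Anxa1 and Glul. DESeq2 also called 0 higher and 2 lower, and at an unadjusted p under 0.05 there were 1 higher and 6 lower. Tsc22d3, which encodes GILZ and is among the most general glucocorticoid-induced genes, was read at 23.9, 26.2 and 23.4 CPM with DEX + iBRD9 and at 25.9, 24.1 and 23.1 CPM with dBRD9. The groups overlapped, and the interval of the log2 difference was −0.20 to 0.21. Fkbp5, a co-chaperone of the receptor, was read at 41.4, 36.4 and 39.2 CPM against 41.9, 40.4 and 44.2 (interval −0.29 to 0.06). Per1, a clock gene with glucocorticoid control, was read at 24, 25.4 and 25.1 CPM against 22.9, 23.6 and 24.6 (interval −0.16 to 0.30). MR levels were 23.3 ± 1.96 CPM for Tsc22d3, 36.5 ± 3.60 CPM for Fkbp5 and 27.2 ± 2.03 CPM for Per1.

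The other targets of the set named here lay close to 0 as well. The intervals of the log2 difference were −0.15 to 0.14 for Dusp1, a MAP kinase phosphatase, −0.09 to 0.15 for Zfp36, which destabilises cytokine mRNAs, −0.41 to 0.26 for Klf9 and −0.25 to 0.10 for the metallothionein Mt1. Sgk1, a serum- and glucocorticoid-induced kinase, was read at 64.4, 69.5 and 66.1 CPM against 57.2, 62.3 and 57.3, with no overlap but an adjusted p of 0.173. Nr3c1, the receptor itself, was read at 97.9, 99.0 and 103 CPM against 85.3, 102 and 93.6 (interval −0.06 to 0.25). Of the 37 uncalled targets, 29 had an interval that stayed within 1.5-fold in both directions and 8, mostly genes of low count, had one that reached further. A missed threshold does not show equal levels, and only these intervals limit the difference.

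The pair that passed was lower in the group with dexamethasone. Lcn2, the siderophore-binding lipocalin, was read at 8.94, 7.94 and 6.56 CPM against 12.9, 11.6 and 12.9 (log2 change −0.67 ± 0.17, adjusted p = 0.0263). Stab1, a scavenger receptor of alternatively activated macrophages, was read at 1573, 1403 and 1410 CPM against 1819, 1659 and 1745 (log2 change −0.25 ± 0.06, adjusted p = 0.0262). MR stood above both of these groups, at 2058 ± 121 CPM. Stab1 overlaps Nt5dc2 on the opposite strand. The glucocorticoid response element, searched as ACANNNTGT, which reads the same on both strands, was found in 3 of the 39 promoters (7.69%) and in 4.19% of all 11665 promoters read, from 250 bases before to 50 bases after the start. Glucocorticoid receptor sites often lie outside such windows.

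**Figure D4:**
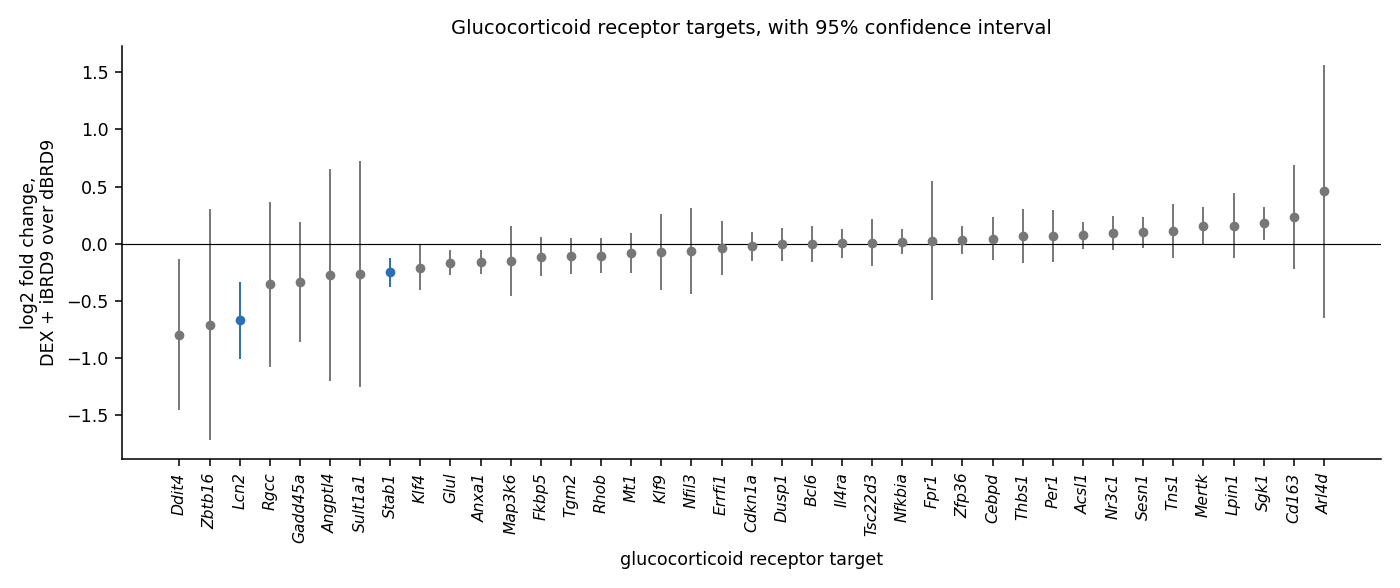
Log2 fold change of DEX + iBRD9 over dBRD9 for the 39 tested glucocorticoid receptor targets, sorted, with the 95% confidence interval as a bar. The 2 called genes, Lcn2 and Stab1, are in colour, and the interval of Tsc22d3 runs from −0.20 to 0.21.

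Interferon response genes were higher with DEX + iBRD9 in a small number of cases. Of 110 tested members 7 were called higher and 1 lower, 75 were fitted above 0, and the median log2 change was 0.12 against −0.0012 over all genes. The share called higher, 7 of 110, stands beside 0.634% of all genes. The list median of log2 CPM relative to each gene's mean was −0.024, 0.107 and −0.072 in the DEX + iBRD9 libraries and −0.114, −0.178 and −0.010 in the dBRD9 libraries, so the groups overlapped at the level of the list. With the length offset the median was 0.15, with 13 called higher and 1 lower, and in the fit of the 6 libraries 18 were called higher and 2 lower. The median against MR, in the same fit, was −0.093 for DEX + iBRD9 and −0.20 for dBRD9, so the level was nearer to MR with DEX + iBRD9. These medians share the MR libraries.

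The 7 members called higher were sensors and effectors of the antiviral state. Rigi, the cytosolic sensor of viral RNA, was read at 357, 411 and 385 CPM with DEX + iBRD9 and at 302, 297 and 326 CPM with dBRD9 (log2 change 0.32 ± 0.07, adjusted p = 0.0102). MR, at 360 ± 7.78 CPM, was like DEX + iBRD9. Eif2ak2, the kinase PKR that stops translation on double-stranded RNA, was read at 199, 221 and 204 CPM against 177, 170 and 177 (log2 change 0.25 ± 0.06, adjusted p = 0.0171), with MR at 222 ± 2.80 CPM. Ifi207, of the PYHIN family of DNA-binding proteins, was read at 447, 517 and 468 CPM against 362, 398 and 389 (log2 change 0.32 ± 0.06, adjusted p = 0.0055). Ifi203, of the same family, was read at 203, 241 and 224 CPM against 163, 172 and 185 (log2 change 0.36 ± 0.07, adjusted p = 0.00762). Ifi207 and Ifi203 lie in a cluster of similar genes, whose reads the counting may have split. Phf11d was called with overlapping libraries, at 83.1, 99.0 and 93.8 CPM against 65.8, 62.7 and 86.7, and Parp14 and Dtx3l, which act together in ADP-ribosylation and ubiquitylation, completed the 7. Parp14 lost its call with the length offset (adjusted p = 0.125), and the other 6 kept theirs. Phf11d was not called in the fit of the 6 libraries (adjusted p = 0.171).

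Other members of the pathway did not pass the test. Stat2 was read at 338, 356 and 328 CPM against 294, 291 and 323, with no overlap and an adjusted p of 0.117. Ifit1 was read at 158, 186 and 153 CPM against 136, 142 and 144 (log2 change 0.24 ± 0.08, adjusted p = 0.0878), and it was called with the length offset (adjusted p = 0.013). Irf7, at 430 to 492 CPM against 394 to 511, overlapped (interval −0.23 to 0.21). Slfn5 was read at 341, 373 and 342 CPM against 324, 303 and 316 (adjusted p = 0.215), below the 418 ± 19.9 CPM of MR. Psmb8, an immunoproteasome subunit, was the member called lower, at 19.2, 15.6 and 15.4 CPM against 31.1, 20.2 and 24.6 (log2 change −0.60 ± 0.14, adjusted p = 0.0171).

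The promoters of 4 of the called members are printed because each holds the core of the interferon-stimulated response element, the site that ISGF3 and other IRF complexes bind. The core was searched on both strands as GAAA, any 2 bases and GAAA again. It was found in 48 of the 110 members (43.6%), in 4 of the 7 called higher, and in 3.78% of all 11665 promoters read. The 300 bases run 5′ to 3′ along the gene on GRCm39, and capitals mark the match. They cover chr17:79189963-79190262 for Eif2ak2, chr4:40239785-40240084 for Rigi, chr1:173769987-173770286 for Ifi203 and chr1:173569334-173569633 for Ifi207, all on the minus strand.
Eif2ak2: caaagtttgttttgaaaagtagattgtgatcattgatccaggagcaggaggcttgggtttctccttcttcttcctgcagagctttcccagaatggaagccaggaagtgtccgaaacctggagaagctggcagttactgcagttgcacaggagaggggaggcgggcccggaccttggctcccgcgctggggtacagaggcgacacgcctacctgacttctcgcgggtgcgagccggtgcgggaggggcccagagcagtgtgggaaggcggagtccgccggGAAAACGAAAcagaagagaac
Rigi: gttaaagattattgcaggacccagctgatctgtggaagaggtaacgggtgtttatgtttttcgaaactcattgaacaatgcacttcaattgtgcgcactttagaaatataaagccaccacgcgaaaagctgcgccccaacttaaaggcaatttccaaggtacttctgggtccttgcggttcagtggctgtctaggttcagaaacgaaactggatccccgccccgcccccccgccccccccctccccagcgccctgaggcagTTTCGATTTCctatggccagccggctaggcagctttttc
Ifi203: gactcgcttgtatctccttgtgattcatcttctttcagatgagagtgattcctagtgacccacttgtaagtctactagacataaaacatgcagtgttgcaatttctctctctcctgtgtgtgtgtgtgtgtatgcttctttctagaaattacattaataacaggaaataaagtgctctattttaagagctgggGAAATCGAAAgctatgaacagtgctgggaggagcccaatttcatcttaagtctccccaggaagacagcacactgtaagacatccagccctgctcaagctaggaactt
Ifi207: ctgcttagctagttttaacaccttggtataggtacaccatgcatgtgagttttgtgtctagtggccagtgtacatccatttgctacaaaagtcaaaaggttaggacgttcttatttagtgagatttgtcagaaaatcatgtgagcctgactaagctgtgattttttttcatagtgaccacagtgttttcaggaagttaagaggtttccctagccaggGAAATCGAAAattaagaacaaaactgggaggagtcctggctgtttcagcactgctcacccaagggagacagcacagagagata

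In Ifi203 and Ifi207 the match began 57 and 33 bases before the annotated start, with the same 10 letters in both genes. In Eif2ak2 and Rigi it began 29 and 11 bases after the start. Members with the core had a median log2 change of 0.16 (48 genes, 39 fitted above 0) and those without it 0.033 (62 genes, 36 fitted above 0). Over all tested genes the medians were 0.030 with the core and −0.0022 without it. With the length offset the medians of the members were 0.20 with the core and 0.11 without it. Those over all tested genes were then 0.043 and 0.0060. A match is a description of the letters and no measure of binding.

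Several genes of antigen presentation were lower with DEX + iBRD9. Of 8 tested MHC class II genes 3 were called lower and 0 higher, with a median log2 change of −0.25, against 1.72% of all genes called lower. H2-Eb1, a beta chain of MHC class II, was read at 8.83, 9.61 and 7.31 CPM with DEX + iBRD9 and at 15.1, 14 and 14.6 CPM with dBRD9 (log2 change −0.76 ± 0.16, adjusted p = 0.00945). H2-Ab1, another beta chain, was read at 8.995, 11.8 and 10.7 CPM against 17.5, 15.3 and 17.4 (log2 change −0.67 ± 0.15, adjusted p = 0.0177). Cd74, the invariant chain that guides MHC class II to the endosome, was read at 44.9, 44.8 and 47.0 CPM against 60.0, 52.3 and 61.0 (log2 change −0.34 ± 0.09, adjusted p = 0.0356), and was no longer called with the length offset (adjusted p = 0.24). The MR means lay between the groups for these genes, at 10.8 ± 2.35, 13.4 ± 2.73 and 53.8 ± 3.01 CPM. MR libraries 1 to 3 were read at 8.69, 10.5 and 13.3 CPM for H2-Eb1 and at 11.1, 12.8 and 16.4 CPM for H2-Ab1. For Cd74 they were read at 52.8, 51.4 and 57.1 CPM. MR library 3, the one with albumin counts, was thus nearest to dBRD9. With the albumin term the log2 changes of the 3 genes were −0.28 ± 0.27, −0.21 ± 0.26 and −0.21 ± 0.16. H2-Eb1 overlaps H2-Aa on the opposite strand.

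The promoters of H2-Eb1 (chr17:34524563-34524862) and H2-Ab1 (chr17:34481933-34482232), both on the plus strand of GRCm39, are shown because they carry the Y box, the site of NF-Y in MHC class II promoters. It was searched as GATTGG on both strands and is marked by capitals.
H2-Eb1: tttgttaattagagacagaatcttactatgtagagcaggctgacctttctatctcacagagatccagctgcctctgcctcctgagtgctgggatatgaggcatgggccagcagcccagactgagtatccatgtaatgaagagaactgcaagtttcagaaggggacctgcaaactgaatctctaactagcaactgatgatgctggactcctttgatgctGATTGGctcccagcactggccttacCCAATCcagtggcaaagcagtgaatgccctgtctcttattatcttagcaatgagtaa
H2-Ab1: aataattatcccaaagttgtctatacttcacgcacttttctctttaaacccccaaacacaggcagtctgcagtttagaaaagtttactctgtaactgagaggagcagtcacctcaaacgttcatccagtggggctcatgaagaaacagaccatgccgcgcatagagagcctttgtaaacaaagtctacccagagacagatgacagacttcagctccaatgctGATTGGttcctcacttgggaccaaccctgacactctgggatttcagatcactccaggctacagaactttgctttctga

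The Y box began 28 bases before the start in H2-Ab1 and 32 bases before it in H2-Eb1, which held a further match on the opposite strand 7 bases before the start. It was found in 5 of the 8 tested MHC class II promoters (62.5%) and in 20.6% of all promoters read, so a match to these short letters is common.

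Some neutrophil markers were lower as well. Of 14 tested 4 were called lower and 0 higher, beside 1.72% of all genes called lower, with a median log2 change of −0.41. They were Lcn2, given above, Ngp, Ltf and S100a9, proteins of neutrophil granules and cytoplasm. S100a9 was read at 36.5, 36.8 and 28.3 CPM against 46.4, 46.1 and 46.4 (log2 change −0.45 ± 0.10, adjusted p = 0.0133), Ngp at 64.6, 66.6 and 50.1 CPM against 73.5, 83.2 and 88.3 (−0.43 ± 0.10, adjusted p = 0.0183) and Ltf at 18.8, 17 and 15 CPM against 24.4, 21.5 and 28.1 (−0.54 ± 0.14, adjusted p = 0.0344). DEX + iBRD9 library 3 was the lowest for each of them. S100a9 and Ngp lost their calls with the length offset (adjusted p = 0.77 and 0.26), where the list median was −0.12. The part of residual neutrophils in these values was not tested.

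Macrophage genes had 1 member called higher and 4 lower of 49 tested, beside 0.634% and 1.72% of all genes, with a median log2 change of −0.094 that was 0.010 with the length offset. The offset gave 3 higher (Msr1, Cd68 and Fcgr3) and 5 lower, and the fit of the 6 libraries 2 higher and 10 lower. Ccr2, the CCL2 receptor of blood monocytes, was read at 12.2, 14 and 13.8 CPM with DEX + iBRD9 and 19.98, 21.2 and 20.9 CPM with dBRD9 (log2 change −0.63 ± 0.12, adjusted p = 0.0055), and MR stood above both at 30.5 ± 3.91 CPM. Cebpb, a transcription factor of myeloid cells, was read at 73.7, 57.3 and 60.1 CPM against 116, 83.8 and 101 (log2 change −0.65 ± 0.13, adjusted p = 0.0223). It was not called in the fit of the 6 libraries (adjusted p = 0.0546), and it overlaps Peds1 on the opposite strand. Apoe, the lipid carrier that macrophages secrete, was read at 1061, 1055 and 1110 CPM against 1389, 1233 and 1412 (log2 change −0.32 ± 0.06, adjusted p = 0.00401). Msr1, the scavenger receptor A, rose from 878, 887 and 890 CPM with dBRD9 to 974, 1032 and 1029 with DEX + iBRD9 (log2 change 0.19 ± 0.05, adjusted p = 0.0286). The mannose receptor Mrc1, at 374, 368 and 387 CPM against 438, 425 and 406, did not overlap but missed the threshold (adjusted p = 0.0944), and was called with the length offset (adjusted p = 0.021).

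Of 38 osteoclast genes edgeR called 0 in either direction in the fit of 12 libraries (2 higher in the fit of the 6 libraries, Traf6 and Pstpip2, 2 higher with the length offset, Tyrobp and Pstpip2, and 1 higher by DESeq2), and the median log2 change was 0.018. At an unadjusted p under 0.05 there were 2 higher and 4 lower. The libraries of the groups failed to overlap for 2 members in the higher and 7 in the lower direction, beside 12.5% and 13.3% of all genes. Acp5, the tartrate-resistant acid phosphatase, was read at 7.41, 11 and 8.40 CPM against 10.3, 9.37 and 11.1 (interval of the log2 difference −0.53 to 0.13). Mmp9, a gelatinase of osteoclasts, was read at 147, 146 and 132 CPM against 128, 134 and 123 (interval −0.00 to 0.29). Ctsk, the collagenase of the resorption pit, was read at 4.30, 4.36 and 3.11 CPM against 5.05, 6.70 and 5.95, below MR at 8.11 ± 1.52 CPM. Its groups did not overlap, and the log2 change was −0.59 (interval −1.06 to −0.12) with an adjusted p of 0.162.

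The fusion proteins and transcription factors of osteoclasts named here were not called in the fit of 12 libraries either. Dcstamp was read at 4.61 to 7.16 CPM against 4.71 to 6.24 (interval −0.44 to 0.48). Ocstamp was near the limit of detection, and its interval of −0.42 to 1.52 leaves a wide range. The proton pump subunit Atp6v0d2 had an interval of −0.32 to 0.18, the transcription factor Nfatc1 one of −0.06 to 0.25, Fos one of −0.03 to 0.21 and Mitf one of −0.02 to 0.28. Jdp2, an AP-1 factor needed for osteoclast formation in mice, was read at 93.9, 98.7 and 96.1 CPM against 98.8, 113 and 101 (adjusted p = 0.402), and both groups lay above MR at 69.9 ± 5.73 CPM. Cdk2ap1, a regulator of CDK2, was read at 38.1, 32.7 and 35.3 CPM against 39.4, 38.8 and 34.9 (interval −0.28 to 0.10), also above MR at 19.6 ± 1.09 CPM.

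Genes of the respiratory chain and the ribosome were well represented among those called lower. Of 78 tested genes of the respiratory chain and ATP synthase 12 were called lower and 0 higher, beside 1.72% of all genes called lower, 73 were fitted below 0, and the median log2 change was −0.27. Of 79 cytosolic ribosomal protein genes 15 were called lower and 0 higher, beside the same 1.72%, 77 were fitted below 0, and the median was −0.25. These transcripts are short, with a median length of 1737 and 1770 bases. With the length offset the medians were −0.13 and −0.10, and 6 and 8 genes were called lower, beside 1.08% of all genes. The 11 tested mitochondrially encoded genes had 0 calls by edgeR (1 higher by DESeq2, 3 higher at an unadjusted p under 0.05) and a median of 0.064. With the length offset the median was 0.33 and 2 were called higher, mt-Co3 and mt-Cytb, of which mt-Cytb was also called in the fit of the 6 libraries.

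The shift was spread over the complexes. The median log2 change was −0.28 over 37 genes of complex I, −0.31 over 9 of complex III, −0.33 over 11 of complex IV and −0.22 over 16 of the ATP synthase, while the 4 genes of complex II, whose transcripts are longer, had −0.050. With the length offset these medians were −0.18, −0.15, −0.097, −0.14 and 0.0048 in the same order. Calls in the lower direction went from 3 to 1 in complexes I and III and from 1 to 0 in complexes IV and II. The ATP synthase had 4 in both fits. Atp5mk, a small subunit of the ATP synthase, was read at 14.7, 12.9 and 9.67 CPM against 25.9, 17.9 and 18 (log2 change −0.73 ± 0.16, adjusted p = 0.0165), and it overlaps Taf5 and Pdcd11. Atp5f1e, the epsilon subunit, was read at 27, 21 and 22.6 CPM against 38.3, 32 and 31.9 (log2 change −0.53 ± 0.11, adjusted p = 0.0108). Ndufa13, of complex I, was read at 21.8, 21.1 and 20.7 CPM against 30.4, 28.0 and 29.9 (log2 change −0.47 ± 0.10, adjusted p = 0.0108), and Uqcr10, of complex III, at 28.3, 25.4 and 24.1 CPM against 46.3, 30.7 and 35.7 (−0.53 ± 0.12, adjusted p = 0.0144). Atp5mk and Atp5f1e were also called with the length offset, and Ndufa13 and Uqcr10 were not (adjusted p = 0.16 and 0.4).

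In the ribosome 11 of 45 large subunit genes and 4 of 32 small subunit genes were called lower, and 5 and 3 with the length offset. Besides Rplp2, Rplp1, its partner in the stalk, was read at 189, 165 and 156 CPM against 297, 232 and 256 (log2 change −0.62 ± 0.11, adjusted p = 0.0102), and its log2 change was −0.24 with the length offset. Rpl10a was read at 257, 241 and 244 CPM against 332, 310 and 299 (log2 change −0.34 ± 0.06, adjusted p = 0.00511), and Rps19 at 110, 90.04 and 98.8 CPM against 144, 125 and 124 (−0.40 ± 0.08, adjusted p = 0.00734). Ribosomal protein genes have many processed copies in the genome, so their counts are uncertain. Of 77 mitochondrial ribosomal protein genes 2 were called lower, Mrpl54 and Mrpl12, a share near the 1.72% of all genes, with a list median of −0.15 that was −0.051 with the offset, and 0 calls remained under it. Against MR the medians of the cytosolic ribosomal list were −0.10 for DEX + iBRD9 and 0.15 for dBRD9, on either side of it.

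**Figure D5:**
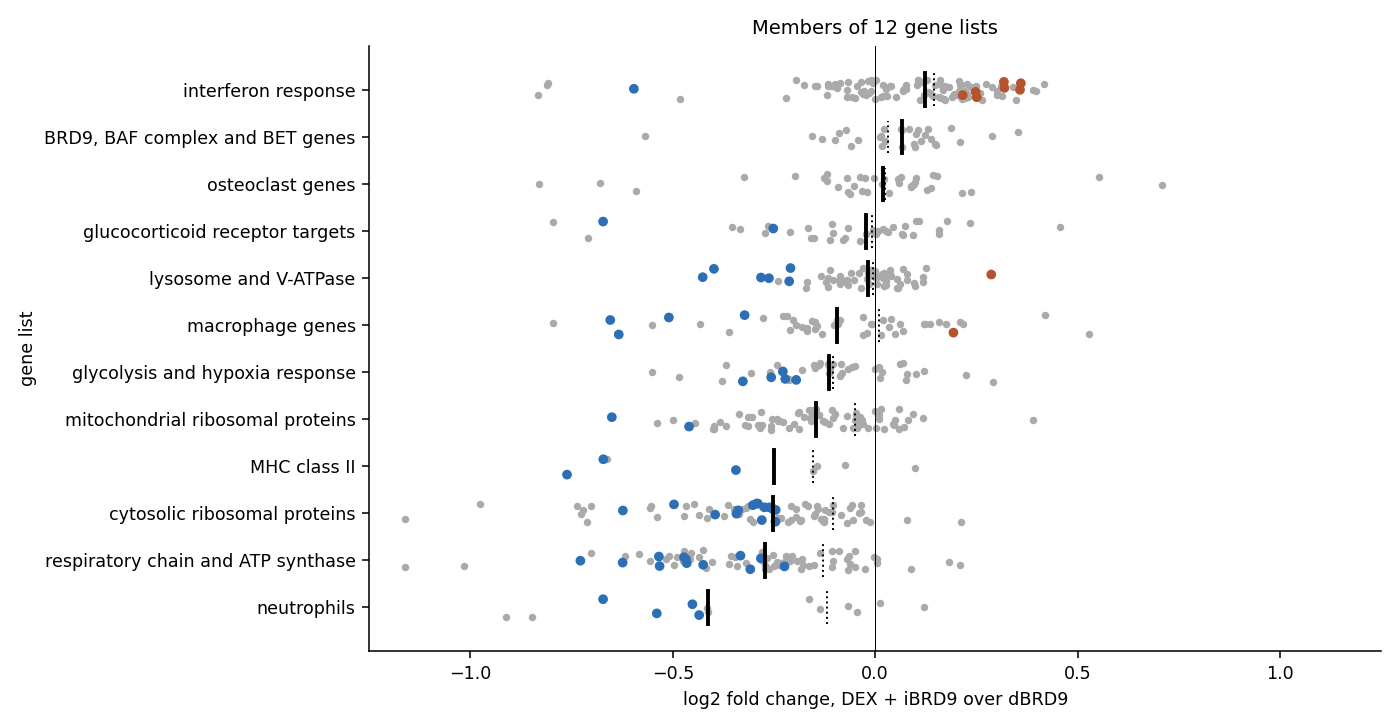
Log2 fold change of DEX + iBRD9 over dBRD9 for the tested members of 12 gene lists, 1 point per gene, with called genes in colour, the list median as a solid bar and the median with the transcript length offset as a dotted bar; 2 members beyond ±1.2 are not shown. The medians of the respiratory chain and the cytosolic ribosome lie at −0.27 and −0.25 and move to −0.13 and −0.10 with the offset.

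A few glycolysis genes were lower with DEX + iBRD9. Of 42 tested 5 were called lower and 0 higher, beside 1.72% of all genes called lower, with a median log2 change of −0.11 that was −0.10 with the offset, and 5 were again called lower under it. Ldha, which makes lactate from pyruvate, was read at 731, 709 and 752 CPM with DEX + iBRD9 and 859, 861 and 848 CPM with dBRD9 (log2 change −0.23 ± 0.05, adjusted p = 0.0181). Slc16a3, the transporter that exports lactate, was read at 97.8, 90.2 and 84.0 CPM against 124, 110 and 108 (log2 change −0.33 ± 0.07, adjusted p = 0.0153). Tpi1, Pgk1 and Eno1, also glycolytic enzymes, had log2 changes of −0.26, −0.22 and −0.20. The offset ended the calls of Tpi1 and Pgk1 (adjusted p = 0.056 and 0.3) and kept those of Ldha, Slc16a3 and Eno1.

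Lysosomal genes had 1 call in the higher and 6 in the lower direction of 59 tested, beside 0.634% and 1.72% of all genes, around a median log2 change of −0.018. With the length offset 2 were called higher, Arsb and Laptm4a, and only Ctsl lower. The cathepsins, proteases of the lysosome, made up 3 of the 6. Ctss was read at 1660, 1659 and 1578 CPM against 2091, 1849 and 1934 (log2 change −0.26 ± 0.06, adjusted p = 0.0119), Ctsl at 2506, 2525 and 2362 CPM against 3027, 2739 and 2799 (−0.21 ± 0.05, adjusted p = 0.0344) and Ctsd at 1985, 1744 and 1682 CPM against 2746, 2117 and 2408 (−0.43 ± 0.09, adjusted p = 0.0344). With the offset Ctsl kept its call (adjusted p = 0.018) and Ctss and Ctsd did not (0.57 and 0.096). Ctsd was also not called in the fit of the 6 libraries (adjusted p = 0.101). Arsb, an arylsulfatase that degrades dermatan sulfate, was the member called higher, at 81.5, 94.9 and 88.4 CPM against 69.4, 77.3 and 70.2 (log2 change 0.29 ± 0.07, adjusted p = 0.0267). Hgsnat, the lysosomal enzyme described above as called higher, is not a member of this list.

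Genes of the BAF complexes and the BET family had 0 calls by edgeR among 31 tested (3 higher in the fit of the 6 libraries, 3 higher by DESeq2, and 4 higher at an unadjusted p under 0.05) and a median log2 change of 0.066. The groups failed to overlap in the higher direction for 10 of them and in the lower direction for 0, beside 12.5% and 13.3% of all genes. The transcripts of this list are long, with a median of 6949 bases, and with the length offset its median was 0.031.

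Inflammatory cytokines and chemokines had 2 of 44 tested members called lower, Ccl6 and Cxcl3, and 0 called higher, beside 1.72% and 0.634% of all genes. Under the length offset Tnf and Ccl3 were called higher and Cxcl3 lower. Ccl6, a chemokine of myeloid cells, was read at 274, 252 and 266 CPM against 320, 307 and 342 (log2 change −0.29 ± 0.06, adjusted p = 0.00734), below MR at 355 ± 14.6 CPM, and lost its call with the length offset (adjusted p = 0.15). Cxcl3, which attracts neutrophils, was read at 3.34, 3.34 and 3.57 CPM against 7.23, 5.28 and 5.73 (log2 change −0.83 ± 0.22, adjusted p = 0.0383). Tnf, which glucocorticoids repress in activated macrophages, was read at 65.2, 69.2 and 65.1 CPM with DEX + iBRD9 against 61.7, 55.5 and 60.3 with dBRD9 (log2 change 0.17 ± 0.07, adjusted p = 0.189), and it was called higher with the length offset (adjusted p = 0.0073). Ccl2 and Il1rn, the monocyte attractant and the interleukin 1 receptor antagonist, had intervals of −0.36 to 0.15 and −0.18 to 0.10.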

How the data were processed

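RNA of the BMDMs was sequenced by the authors from NEBNext Ultra II libraries, and the submitters' processing notes name cutadapt, HISAT2, HTSeq and GRCm39. The deposited table holds whole read counts per gene and library. The authors also deposited FPKM, which were used here only for the transcript length that counts and FPKM imply. Low counts were removed with filterByExpr (at least 10 counts, 15 in total), and the rest were scaled by TMM and tested in 1 fit of 4 groups of 3 libraries by the quasi-likelihood test of edgeR 4.0.16 (R 4.3.3, limma 3.58.1), with Benjamini-Hochberg adjustment over 11670 genes and a threshold of 0.05. Errors of log2 changes are SEs. CPM are TMM-scaled. The biological coefficient of variation was 7.29%. Pairs of replicates within the 2 groups had a chi-square of 3.55 to 8.36 per degree of freedom, so no library was counted as a repeat of another.

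Gene lists, the comparison and the rules were chosen with earlier results of these data known, so they are no independent support. Named genes were the 12 largest called changes per direction (mean of at least 5 CPM, no overlap, no predicted genes), a fixed set, up to 5 called members per list and direction, and markers of other cell types. The hepatocyte list held 48 genes of the table. Alternatives were other scalings, filters and thresholds, DESeq2 1.42.0, fits of 6 or 9 libraries, a term for libraries with at least 100 albumin counts, a loess offset for transcript length, and leaving out each library. The scripts were tested on simulated data. Promoters (250 bases before to 50 after the canonical start) were read from GRCm39 with the GENCODE annotation for 11665 genes. Some genes are not reported here. Figures were drawn in Python 3.11.15 with matplotlib 3.10.9.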

Additional observations from a re-analysis of the deposited data

How the results depend on the processing

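The 76 called of the 107 genes named by rule kept their direction in each alternative that could be run for them, while the counts of calls moved with the libraries in the fit. For the hepatocyte markers Fgg, Itih4, Apoc1 and Mup20 among them the albumin term gave SEs of 153 to 1208. Their sign under that term carries no information, and their pattern was known when the comparison was chosen. Against 74 genes called higher and 201 lower, there were 247 and 496 without a filter and 336 and 513 in the fit of 6 libraries. The fit of 9 libraries without JQ1 gave 425 and 535. The thresholds of the study, an unadjusted p under 0.05 with a fold of 1.2, gave 274 and 631. That p was the one of edgeR, whereas the study used DESeq. DESeq2 called 180 higher and 301 lower. The length offset gave 104 and 126. Chosen after seeing the data, the fit of 6 libraries with the length offset gave 176 and 220, and the fit of 9 libraries with the albumin term gave 0 and 0, as did the albumin term in 12 libraries (0 and 0). Leaving out each library in turn gave 2 to 90 called higher and 6 to 262 called lower. DESeq2 size factors (86 and 189), total counts (81 and 183), the stricter filter (68 and 176) and a minimum fold of 1.2 (51 and 163) changed less. Of the 76 called genes 47 were called with the length offset, 72 in the fit of 6 libraries, 67 by DESeq2 and 5 in each fit that left out 1 library. Among 1809 alternatives of named genes 39 changed sign, all in genes that were not called. Depth limits the genes of a few CPM, whose intervals are wide. No paired analysis was possible because the labels give the groups no shared replicate numbers.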

Other observations

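Other lists held few calls. Of 62 tested S phase genes and 38 genes of cholesterol and fatty acid synthesis 0 were called by edgeR in the fit of 12 libraries or by DESeq2 (the fit of the 6 libraries called 2 S phase genes lower, Mcm5 and Pcna), with medians of 0.001 and −0.025 on the log2 scale. At an unadjusted p under 0.05 there were 1 higher and 5 lower S phase genes and 0 higher and 6 lower genes of lipid synthesis. Of 78 G2 and M phase genes, Cenpe, a kinesin of the kinetochore, was called higher (log2 change 0.28 ± 0.07, adjusted p = 0.0313) and Stmn1, which destabilises microtubules, lower (−0.27 ± 0.07, adjusted p = 0.0365). Neither was called with the length offset. Of 20 replication-dependent histone genes only H3c4 was called, higher at 0.849, 0.418 and 0.576 CPM against 0.118, 0 and 0.170 CPM, while the list median was −0.52 and was −0.10 in the fit of the 6 libraries. The whole list summed to 76.4 to 88.4 CPM in the 6 libraries compared and to 474 to 511 CPM with JQ1. The JQ1 libraries also entered the filter on low counts, so members can be tested with few counts in the groups compared. Histone transcripts lack a poly(A) tail.

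Genes of the amino acid stress response had 3 of 34 called lower, among them Sars1, the seryl-tRNA synthetase (119, 115 and 120 CPM against 153, 136 and 146, log2 change −0.30 ± 0.06, adjusted p = 0.0139), which was also called with the length offset. Eif4ebp1 and Eif5a, factors of translation, were called lower as well (−0.39 and −0.28), and neither kept its call with the offset (adjusted p = 0.096 and 0.062). Sod1, the cytosolic superoxide dismutase, was the only 1 of 25 NRF2 and metal response genes called, lower at 138, 127 and 133 CPM against 182, 167 and 167 (−0.37 ± 0.07, adjusted p = 0.00511). It overlaps Scaf4 on the opposite strand. Under the length offset G6pdx was called higher and Tkt and Sod2 lower besides Sod1. Of 31 immediate early genes Atf3 and Gadd45b were called lower (−0.29 and −0.42), and neither was with the length offset (adjusted p = 0.14 and 0.26). Markers of stromal cells had 0 calls by edgeR in the fit of 12 libraries and by DESeq2 (2 of 10 higher at an unadjusted p under 0.05, and 1, Fbn1, higher in the fit of the 6 libraries), and those of dendritic cells 0 by edgeR and 1 lower by DESeq2 (3 of 6 lower unadjusted).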
